A study of Equus caballus with 2 samples.

Results

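The table of stallion sperm RNA holds 19257 expressed genomic regions, called tags, and 1298 of them (6.74%) spanned masked and unmasked sequence under the rule used here. These members were selected on tag length (at least 50 bp), on position (ECA1 to ECA31 or ECAX), on letter case (both lower-case and upper-case bases in the tag) and on average coverage (AC under 100). AC is the mean read depth over a tag as deposited. Lower-case letters are taken to mark sequence that was masked as repetitive in the horse draft assembly EcuCab2, the usual convention of genome browsers, and upper-case letters unmasked sequence. How the masking was done is not given in the sources used here. In all, 2468 tags held both cases. Of these, 82 were left out as they lay on unplaced contigs (ECAUn) or the mitochondrial genome (Mt), 900 as they were shorter than 50 bp and 188 as they had AC of 100 or more.

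Sperm from 2 reproductively normal, fertile stallions (Equus caballus) was collected fresh and purified from somatic cells and immature sperm on a density gradient. Total RNA (500 ng) was sequenced as 50 bp single-end SOLiD reads in 1 library per stallion, and there was no other group. The deposited table gives 1 AC per tag. Wherever it could be compared with the values that the study lists for each stallion, it was the higher of the pair, so that a level given here may be that of a single library. The separate values were held only in part and were not used here, and no value below has a replicate error or a test. The number of reads behind a tag is therefore unknown, and differences between tags are described only. As in any bulk sample, fewer cells that carry an RNA and less of it per cell cannot be told apart. The table names no genes, and markers of other cell types in semen were not analysed here.

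Masked sequence in a mammalian genome is of several kinds. Transposable elements include long and short interspersed elements (LINEs and SINEs), simple repeats are short units in tandem, and multicopy genes of small structural RNAs are masked as well because they have many near-identical copies and pseudogenes. Spermatozoa have long been thought to transcribe little or nothing, and their RNA has been regarded as a remainder of spermatogenesis. The study disputes this view. It proposes that sperm RNA is kept selectively, and cites reports of transcription in mature sperm. Repeats that appear in sperm RNA can be parts of longer transcripts, such as introns, untranslated regions or codons in tandem, or RNAs of their own.

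Examples of each kind are shown first, as deposited, with unmasked bases in capitals and masked bases in lower case. Positions refer to EcuCab2. RNA and repeat names were given from general knowledge after the sequences had been seen, since no reference sequence was aligned.
U2 small nuclear RNA (spliceosome), nearly the whole tag masked, chr11:19939522-19939710: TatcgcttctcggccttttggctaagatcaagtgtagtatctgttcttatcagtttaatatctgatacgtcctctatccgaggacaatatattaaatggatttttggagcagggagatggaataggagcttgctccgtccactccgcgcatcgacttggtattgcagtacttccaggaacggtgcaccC
SNORA73, also called U17, a small nucleolar RNA needed for rRNA processing, chr2:27530146-27530355: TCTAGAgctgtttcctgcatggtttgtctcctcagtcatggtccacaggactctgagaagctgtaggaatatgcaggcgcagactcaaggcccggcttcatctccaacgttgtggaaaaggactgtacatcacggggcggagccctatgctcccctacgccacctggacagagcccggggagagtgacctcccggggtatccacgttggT
Lysine tRNA with anticodon CTT, reverse strand, chr13:39604570-39604644: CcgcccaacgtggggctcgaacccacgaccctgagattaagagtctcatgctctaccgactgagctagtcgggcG
Lysine tRNA with anticodon TTT, chr11:51006042-51006114: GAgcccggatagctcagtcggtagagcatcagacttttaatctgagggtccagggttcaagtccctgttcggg
Cysteine tRNA with anticodon GCA, chr11:23288723-23288794: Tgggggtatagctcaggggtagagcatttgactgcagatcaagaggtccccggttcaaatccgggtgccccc
Valine tRNA with anticodon TAC, reverse strand, chr20:25255406-25255480: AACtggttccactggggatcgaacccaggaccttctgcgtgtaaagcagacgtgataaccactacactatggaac
Y3 RNA, a small RNA bound by Ro60, chr17:12949350-12949448: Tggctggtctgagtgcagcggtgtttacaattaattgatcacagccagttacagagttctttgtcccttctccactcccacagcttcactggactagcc
5S ribosomal RNA, with a deviating end in capitals, chr14:26643106-26643210: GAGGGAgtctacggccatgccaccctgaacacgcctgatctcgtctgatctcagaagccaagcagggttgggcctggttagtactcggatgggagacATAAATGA
7SK RNA, a regulator of transcription elongation, chr16:64505980-64506090: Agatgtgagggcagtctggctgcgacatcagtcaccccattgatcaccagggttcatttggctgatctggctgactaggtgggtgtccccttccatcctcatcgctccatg
A horse tRNA-derived SINE beside unmasked bases, chr24:34533079-34533305: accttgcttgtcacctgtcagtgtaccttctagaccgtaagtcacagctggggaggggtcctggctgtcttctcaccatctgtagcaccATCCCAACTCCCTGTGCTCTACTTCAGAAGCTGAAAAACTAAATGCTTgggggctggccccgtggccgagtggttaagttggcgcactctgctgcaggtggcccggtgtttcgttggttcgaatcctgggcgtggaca
A dinucleotide repeat between unmasked ends, chr9:21442075-21442131: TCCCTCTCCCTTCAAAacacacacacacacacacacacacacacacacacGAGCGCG
Telomere units, the less regular first 150 bases, chr8:30130517-30130666: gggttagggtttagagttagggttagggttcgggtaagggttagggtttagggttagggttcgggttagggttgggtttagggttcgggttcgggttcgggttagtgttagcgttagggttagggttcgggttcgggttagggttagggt

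Long tags crossed a masking boundary more often than short ones. Of the 8357 placed tags of at least 50 bp with AC under 100, 6463 (77.3%) were wholly unmasked, 1298 (15.5%, 95% Wilson interval 14.8% to 16.3%, for counting error only) held both and 596 (7.13%) were wholly masked. Members made up 313 of 2997 tags of 50 to 99 bp (10.4%), 309 of 3258 tags of 100 to 199 bp (9.48%), 367 of 1521 tags of 200 to 499 bp (24.1%) and 309 of 581 tags of at least 500 bp (53.2%). Wholly masked tags made up 12.2% of the shortest class and 1.20% of the longest. A longer tag has more positions at which a boundary can fall.

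**Figure D1:**
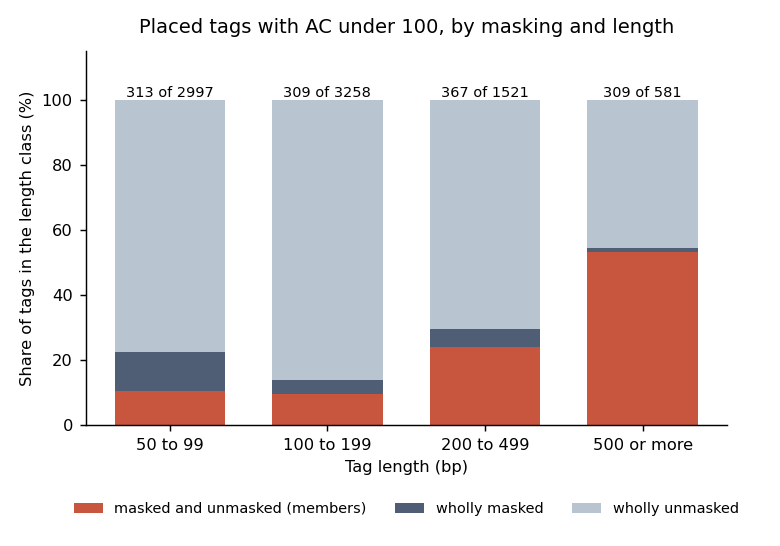
Share (%) of wholly unmasked, wholly masked and mixed tags among placed tags with AC under 100, by tag length in bp. Numbers above the bars give members of all tags in the class. Members took 10.4% of the shortest class and 53.2% of the longest.

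The median length of the members was 208 bp (quartiles 102 and 464.75 bp), from 50 bp up to 5008 bp. Wholly unmasked tags chosen in the same way had a median of 122 bp and wholly masked tags 82.5 bp. AC of the members ranged from 5.14 to 98.69 with a median of 13.71 (quartiles 10.2 and 22.3), and 294 had AC under 10, 625 had 10 to under 20, 280 had 20 to under 50 and 99 had 50 or more. The median was 12.42 in wholly unmasked and 12.62 in wholly masked tags. Since AC was part of the selection, these levels are a description only. Just inside the bound lay chr22:44952138-44953947 with AC of 98.69, and just outside it chr7:21577957-21578007 with AC of 100.14. At the length bound, 17 members were 50 bp long (median AC 17.45) and 14 mixed tags were 49 bp long (median AC 11.955).

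The members covered 484081 bases, of which 195035 (40.3%) were masked. They made up 22.6% of the bases of placed tags and 1.49% when each base was weighted by AC. The second share was limited by the selection, as members had AC under 100 and other placed tags had up to 242049. The masked share of a member had a median of 48.7% (quartiles 22.9% and 77.7%) and extended from 0.408% to 99.7%. It was lower in longer tags, from a median of 70.6% in the shortest length class over 51.5% and 41.9% to 29.6% in the longest. Median AC was 13.27 in members less than 25% masked, 12.865 at 25 to under 50%, 13.51 at 50 to under 75% and 14.65 at 75% or more, a narrow range beside the quartiles of each class. The description as tags of repeat and unique sequence held in part: 49 members had fewer than 10 masked bases and 150 had fewer than 10 unmasked bases, which leaves 1099 with at least 10 of each.

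Most members had a single boundary or 1 masked run inside unmasked sequence. A single boundary was found in 668 members (51.5%), with the masked run first in 347 and last in 321. In 332 members (25.6%) a masked run lay inside unmasked sequence, in 112 (8.63%) an unmasked run lay inside masked sequence, and 186 (14.3%) had 3 or more boundaries. Their median lengths were 157.5, 236, 230 and 634 bp and their median AC 13.115, 14.495, 11.585 and 16.115, respectively. In 464 of the 668 members with a single boundary (69.5%) the shorter side was under 50 bp, the length of a read. There were 1691 masked runs with a median of 74 bp and a maximum of 1894 bp, of which 1097 (64.9%) were at least 50 bp long. The members with the most boundaries were chr1:83190555-83192564 and chr13:33203914-33206028 with 11 each, at AC of 13.28 and 15.65, and chr16:6735629-6738169 with 10 at AC of 16.75.

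**Figure D2:**
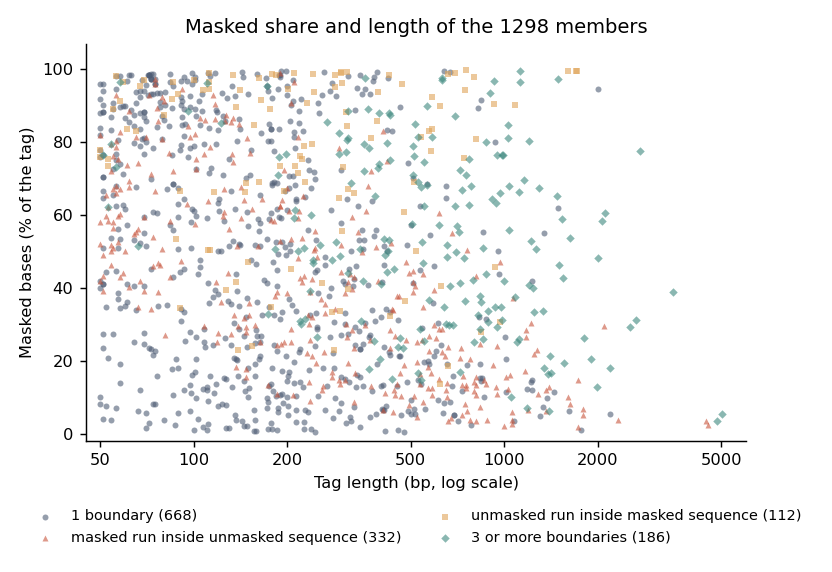
Masked share (%) against tag length (bp, log scale), 1 point for each of the 1298 members, by the order of masked and unmasked runs. The median masked share was 70.6% in the shortest length class and 29.6% in the longest.

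GC content of masked and unmasked bases differed little in the median, but more within single members. Among the 1099 members with at least 10 bases of each case the median GC was 49.6% in masked and 51.2% in unmasked bases. The median difference within a member, masked minus unmasked, was -1.39 percentage points (quartiles -7.83 and 5.50). Masked bases were richer in GC in 474 members and poorer in 621. Whole tags had a median GC of 50% in members, 47.9% in wholly masked and 52.4% in wholly unmasked tags, so that members lay between the other kinds. This order did not hold in tags of 100 to 199 bp, with 49.7% in members, 50% in wholly masked and 53.0% in wholly unmasked tags. It held in the other length classes.

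Small structural RNAs were found among members of high and of low AC. By sequence, 44 members (3.39%) resembled 14 kinds of structural or mitochondrial RNA, some over only part of the tag. Of these 44, 17 folded as tRNAs, 13 belonged to groups of members alike in sequence (U2, U4 and SNORA73) and 14 were similar to a tag with AC of at least 1000. Their median AC was 33.085 against 13.375 for the other 1254 members, and 17 of the 44 (38.6%) had AC of 50 or more against 82 of the 1254 (6.54%). In 36 of the 44 (81.8%) at least 90% of the bases were masked, against 10.8% of the others. AC was part of the selection, some of the 44 were found through their likeness to tags of very high AC, and the arginine and cysteine tRNAs and 7SK lay near the median of the other members or below it. The 3 rules were set after the sequences had been seen, and the 44 are therefore not a sample on which a difference could be tested.

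U2, the small nuclear RNA that pairs with the branch point of introns, gave the third-largest group of similar members (9 tags, 89.5% to 100% identical over the aligned bases). On ECA11, 6 of them lay within 62357 bp, between positions 19939522 and 20001878. Of the 2 other tags between them, chr11:19977699-19977838 was also similar to U2 and had AC of 118.06, above the bound. Their AC was 93.58, 93.56, 92.80, 92.80, 87.55 and 63.64, so that 2 were among the 10 members with the highest AC. The copies on ECA15, ECA12 and ECA10 had 48.27, 46.41 and 23.00, all below those of the ECA11 cluster. The tags at chr11:19957173-19957378 and chr11:19962707-19962912, both with AC of 92.80, were 100% identical over 204 bp. Within the cluster, 185 to 187 bases of each tag were masked and 2 to 32 were not. In the RefSeq table of another horse assembly, chromosome 11 carried 10 small nuclear RNA genes of 191 bp among 423 in the genome. They are not named there, and their positions were not compared.

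U4, another small nuclear RNA of the spliceosome, was represented by members on ECA1 (AC 30.84) and ECA11 (AC 16.64), below the other 4 tags of like sequence, which had 48.45 to 129.16. The SNORA73 members, chr2:27530146-27530355 and chr2:27529354-27529561, lay close together on ECA2, were 99.5% identical over 204 bp and had AC of 84.64 and 84.38. No other tag of the table was similar to them.

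Lysine and cysteine tRNAs, which deliver these amino acids to the ribosome, differed in AC among these few tags. Copies were alike in sequence (cysteine members 95.8% to 100% identical), and their values may not be independent. Of all members, 7.63% had AC of 50 or more and 48.2% had 10 to under 20. The 5 lysine tRNA members had AC of 92.11, 68.77 and 63.76 (anticodon CTT) and 69.40 and 69.40 (anticodon TTT). The 7 cysteine tRNA members (anticodon GCA) had 18.59, 18.28, 17.85, 14.69, 14.69, 14.12 and 14.12, of which 6 lay on ECA11 and 1 on ECA16. Valine tRNAs spread more widely, with 80.13 and 12.21 for anticodon TAC, 18.96 for CAC and 17.23 for AAC, and the only arginine tRNA (CCG) had 10.78. The 2 lysine tags with anticodon TTT, on ECA11 and ECA12, had identical sequences, as did the 2 cysteine tags with AC of 14.69, so that the table gave identical copies the same value. The AC bound divided the lysine family: 10 further tags with anticodon CTT had AC of 109.39 to 128.49 and were left out for that reason alone. Tags wholly in lower case with the fold numbered 3, and none of the 12976 wholly unmasked tags had it. These 12976 were of every length, some too short for the fold. Multicopy genes of small RNAs are masked, and the absence is therefore no finding. The RefSeq table lists 22 genes for TRNAC-GCA, 16 for TRNAK-CUU and 14 for TRNAK-UUU.

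Some members resembled the most abundant RNAs of the table. The members were limited to AC under 100 and their partners chosen at AC of 1000 or more, so that the distance between them was set by the selection. Beside the 5S rRNA tags, whose AC reached 33750.4, stood members with 65.82, 41.26 and 23.26, at most 92.9% identical to them. Members like 18S rRNA had 48.47 and 8.24 beside tags with up to 62499.5, and a member like 28S rRNA had 25.08 beside a tag with 98778.9. Their likeness to these tags was partial, over 59 of 210 bp, 67 of 112 bp and 60 of 96 bp, respectively. AC is that of the whole tag. Parts of 7SL, the RNA of the signal recognition particle, appeared in members with 52.95 and 14.23 beside a tag with 242049. Y3 RNA was present in members with 28.10 and 12.33 beside tags with 332.50 to 1489.48, and 7SK in members with 11.96 and 8.08. The 20 other tags like 7SK had a median AC of 30.335 and ranged from 8.51 to 1202.32. Identity to tags of like sequence was 80.7% to 93.9%. Reads with several similarly good alignments had been discarded before AC was calculated, and how many reads of the abundant copies reached these members was not tested.

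Mitochondrial sequence was found in members on ECA10 and ECA2. The 540 bp tag chr10:75481658-75482197 (AC 35.33) was 99.1% identical over 536 bp to positions 2699 to 3234 of the long Mt tag, whose AC was 4390.4. Its last 73 bases were masked and read, on the reverse strand, as a mitochondrial leucine tRNA, beside the unmasked start of ND1, a subunit of respiratory complex I. The 137 bp tag chr2:663302-663438 (AC 87.35) was 89.8% identical over 118 bp to positions 238 to 355, in the small ribosomal RNA, and 91.6% identical over 119 bp to a nuclear tag on ECA1 with AC of 6377.01. Here 132 of the 137 bases were unmasked, in contrast to the nuclear RNA families.
End of the ECA10 tag, last 150 bases, chr10:75482048-75482197: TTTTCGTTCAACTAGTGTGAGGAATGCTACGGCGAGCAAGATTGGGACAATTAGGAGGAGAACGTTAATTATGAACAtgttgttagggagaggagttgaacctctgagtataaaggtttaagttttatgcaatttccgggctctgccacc

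**Figure D3:**
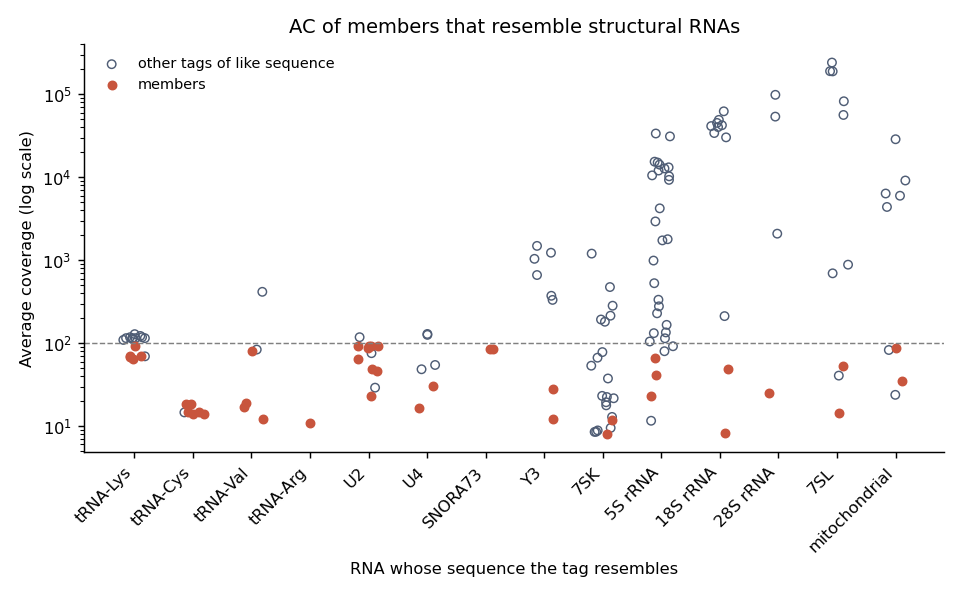
AC (log scale) of tags that resemble structural or mitochondrial RNAs, 1 point per tag, with members filled and other tags of like sequence open; the dashed line is the AC bound of 100. Members like 7SL, rRNA, Y3 or 7SK lay between 8.08 and 65.82, whereas the highest tag of like sequence, one of 7SL, reached 242049.

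Simple repeats were a second common feature. A perfect tandem repeat of a unit of 1 to 6 bases, at least 12 bases long and in masked bases, was present in 365 members (28.1%), against 20% of wholly masked and 12.6% of wholly unmasked tags, for which the unmasked bases were searched. Members were longer (median 208 bp against 82.5 and 122 bp) and so had more positions for a repeat. A stretch of 12 bases holds only 2 copies of a 6-base unit but 6 of a dinucleotide, so that longer units met the bound with fewer copies. In their unmasked runs, 201 members (15.5%) had one of at least 12 bases. With at least 20 bases, the shares were 9.01% (117 members), 5.70% and 0.0155% (1 of 6463 tags), and none of the members had such a repeat in its unmasked runs. Long simple repeats are what masking marks, and the low share in unmasked sequence is no finding. Median AC was 12.88 with a repeat of at least 20 bases and 13.41 without any, and median length was 85 and 206 bp.

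Units made of purines on 1 strand were frequent. The dinucleotide AC led in 41 members and AG in 39, followed by AGG (18), A (13) and AGGG (12), among 112 distinct units counted on either strand. Units of 2 to 6 bases with A and G only made up 152 of the 365 (41.6%), and 40.3% in wholly masked tags. Among the longest repeats, the unit AAGGAG formed those of chr26:577086-577428 (152 bases, AC 18.09), chr17:41747441-41747628 (84 bases, AC 14.71) and chrX:73685636-73685950 (63 bases, AC 9.81). These 3 tags belonged to the same group of similar members, described further on. Another of the longest repeats was in chr8:30130517-30130905, which carried 22 perfect units of the telomere sequence TTAGGG in a row (132 bases) and had a higher AC of 62.54. It was the only member with at least 3 such units in a row, which 15 of all 19257 tags had.

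**Figure D4:**
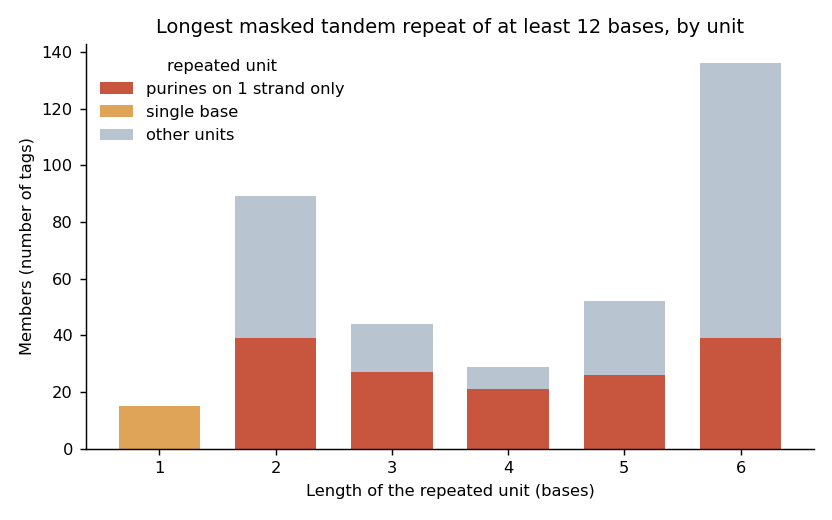
Number of members by the length (bases) of the unit of their longest masked tandem repeat of at least 12 bases. Units with purines on 1 strand only accounted for 152 of 365 members. Units of 6 bases were the most frequent class, but 12 bases hold only 2 copies of them against 6 of a 2-base unit. The classes are therefore not on an equal footing.

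Some masked purine repeats lay in protein-coding sequence that could be recognised by its letters. The masked run in chr13:33211027-33211438 (AC 33.52), 46 of 412 bases, is a series of glutamate codons in sequence that reads as protamine 3 (PRM3), a gene that lies between PRM2 and TNP2 in RefSeq. Elsewhere the study lists a lower AC for this tag than the deposited table does. The member chr28:27431323-27431449 (AC 55.57) reads as the acidic end of HSP90B1, the chaperone GRP94 of the endoplasmic reticulum, with 111 of 127 bases masked. Both names were given after the sequences had been seen and without an alignment to a reference. The tag that the study lists for MIR761, a miRNA within NRDC in RefSeq, held a purine repeat as well. It had AC of 88.90, and 193 of its 324 bases were masked. The word GAAGAGGAA, searched on both strands, occurred in 46 members (3.54%), in 30 of them within masked bases, and in 1.39% of the wholly unmasked tags of the same selection, which were shorter. The masked runs and bases beside them are given here in the same way as above.
PRM3, masked run and 75 bases on each side, chr13:33211116-33211311: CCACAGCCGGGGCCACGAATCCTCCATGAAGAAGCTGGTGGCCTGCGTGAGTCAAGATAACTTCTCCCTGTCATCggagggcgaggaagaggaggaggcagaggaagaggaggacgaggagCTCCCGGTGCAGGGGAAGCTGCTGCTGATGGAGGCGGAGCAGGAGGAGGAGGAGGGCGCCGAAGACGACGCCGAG
HSP90B1, whole tag, chr28:27431323-27431449: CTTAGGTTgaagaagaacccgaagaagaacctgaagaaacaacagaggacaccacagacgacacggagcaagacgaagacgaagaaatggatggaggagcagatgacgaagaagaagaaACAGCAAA
Tag of MIR761, from 30 bases before the masked run, chr2:7426979-7427128: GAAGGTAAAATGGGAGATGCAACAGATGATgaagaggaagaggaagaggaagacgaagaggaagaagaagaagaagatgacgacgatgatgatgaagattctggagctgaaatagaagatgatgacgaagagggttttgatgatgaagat

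Members were looked up only among the tags that the study lists for miRNAs, PKM2, CRISP3, TNP2 and PRM1. Its other gene assignments were not compared with the members, which were 6.74% of all tags. Of 82 miRNA entries, 4 fell on members: besides MIR761 these were MIR103 (chr22:19036072-19036675, AC 14.19, 22.7% masked), MIR155 (chr26:23244624-23244939, AC 11.19, 45.3% masked) and MIR128-2 (chr18:19481918-19482157, AC 6.85, 21.2% masked). These are values of the whole tags, and whether the tags hold the miRNAs was not tested. Of the 9 tags of PKM2, which encodes the muscle form of pyruvate kinase, 1 was a member, chr1:121100717-121100902, with AC of 52.06 and a run of 20 masked T directly before unmasked sequence. None of the 3 CRISP3 tags was a member. Around TNP2 and PRM1, which package sperm DNA, 4 of 12 tags were members. Their AC was 30.69 at chr13:33216307-33216705, 33.52 in the PRM3-like tag, 15.65 at chr13:33203914-33206028 and 12.40 at chr13:33198245-33198302. The 2115 bp tag with AC of 15.65 had 11 boundaries and was 60.5% masked, the highest share of the 4.
Start of the PKM2 tag, chr1:121100717-121100822: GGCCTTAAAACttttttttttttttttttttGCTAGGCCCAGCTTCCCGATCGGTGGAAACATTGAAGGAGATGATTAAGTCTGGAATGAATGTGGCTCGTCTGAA

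Similarity to other tags was found in 194 members (14.9%, at least 80% identity over at least 40 bp). The share was 27.6% with the low-complexity filter off and 22.8% without the AC bound. The alignment lay mostly in masked bases for 145 and mostly in unmasked bases for 66, with some members in both. Among themselves 157 members formed 46 groups, of which 28 were pairs. The largest group had 19 members on 12 chromosomes with AC of 8.06 to 68.99, the highest being chr31:14749555-14749611. The word TTGGCAACA, searched on both strands as a possible mark of SINEs, was in 3 of the 19 and in 6 members in all (0.462%), of which 2 had it in masked bases, against 0.135% of all tags and 0.201% of the wholly unmasked tags of the same selection. The next had 15 members on 15 chromosomes with AC of 8.59 to 87.55, led by chr24:34533079-34533305, and joined tags with SINE letters to tags with purine repeats such as those on ECA26, ECA17, ECAX and ECA28. In the ECA24 tag 48 unmasked bases stood between a masked start and a SINE at its end. The word GGTTAAGTT of this SINE was present on either strand in 12 members (0.924%), in 11 of them in masked bases, against 0.125% of all tags and 0.0619% of the wholly unmasked tags of the same selection. It was read off a member and then counted in the same tags. Wholly unmasked tags hold no masked bases and were shorter than members, which applies to both words. The lower shares in them are therefore no finding.

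Some other groups consisted mainly of long, mostly unmasked copies on a single chromosome. On ECA23 the tag chr23:6112498-6117334 (4837 bp, AC 97.77) was 99.4% identical over 4839 aligned positions to chr23:6372152-6377159 (5008 bp, AC 89.39) and 89.7% identical over 4578 to chr23:6053277-6057805 (4529 bp, AC 80.70). These were the 3 longest members, with 3.31%, 5.43% and 2.36% masked, and the second-highest AC was among them. The short remaining tag of the group, chr23:5801905-5802234 (330 bp), had AC of 23.12. The group was similar to 59 further tags, of which 54 had AC of 100 or more, up to 948.93. Next in length, chr13:21742480-21746926 (4447 bp, AC 90.06) was grouped with a 214 bp member on ECA23 (AC 13.07), and 37 of the 39 other tags similar to this pair had AC of 100 or more. The fifth, chr17:78424587-78428087 (3501 bp, AC 49.90), had 8 boundaries and was 39.0% masked. Smaller groups of this kind lay on ECA10 (1373 to 1624 bp, AC 74.94, 42.48 and 31.36) and on ECA18 (1219 to 1231 bp, AC 10.40, 9.90 and 9.89), where the first was 99.3% and 98.8% identical to the others. What these tags encode was not analysed here.

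The remaining members of highest AC, beside the U2 tags and the long copy on ECA23, shared no single feature. A masked tandem repeat of at least 12 bases was found in 28.1% of all members. Too few tags, picked by AC, remained here to compare with that share. The U2 tags and the long ECA23 copy held no such repeat, but several of the remaining members did. These were chr22:44952138-44953947 (AC 98.69, 1810 bp with 6 boundaries and 21 bases of AGAGG repeat), chrX:60961278-60961331 (96.42, 54 bp with 12 bases of AT repeat), chr13:20245595-20246541 (96.36, 76.5% masked, 13 bases of AAGAGG repeat), chr2:42323129-42323603 (96.27, 26 bases of AAAGAC repeat) and chr9:21442075-21442131 (95.12, 57 bp with 17 copies of AC). Without such a repeat were chr1:161241841-161241987 (96.75) and chr9:4253799-4253850 (96.01, 52 bp). Masked share among all these remaining members ran from 18.7% to 76.5%.

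Another tag lay within 1000 bp of 535 members (41.2%), of 43.2% of wholly unmasked and of 24.2% of wholly masked tags. Without ECA1 and ECA10 to ECA19, which held 71.1%, 79.0% and 63.4% of these kinds, respectively, the share for members was 21.6%. The nearest tag was wholly unmasked for 297 of the 535 (55.5%), another member for 180 and wholly masked for 53. It was drawn from tags of every length and AC, and of all 19257 tags 12976 were wholly unmasked. The median distance to the nearest tag was 2292 bp for members, 1442 bp for wholly unmasked and 10368 bp for wholly masked tags.

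By chromosome, members were most numerous on ECA11 (156), ECA1 (126), ECA13 (108) and ECA10 (104). ECA1 and ECA10 to ECA19 together held 923 of the 1298 (71.1%), but also 76.6% of all placed tags of at least 50 bp with AC under 100. Among these tags the share of members was 14.4% on the 11 chromosomes (10.9% to 18.1% by chromosome) and 19.2% on the other 21 (12.3% to 30%). Median AC was 13.28 and 14.74, respectively, and AC under 10 was found in 255 of 923 members (27.6%) against 39 of 375 (10.4%). The lowest AC of a member was 5.14 on the 11 chromosomes and 6.16 on the others. Over all tags, the lowest AC by chromosome was 2 to 5.3 on the 11 and 5.3 to 8.66 on the other 21. The lower floor was thus not particular to the members. Median length was 223 and 172 bp.

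**Figure D5:**
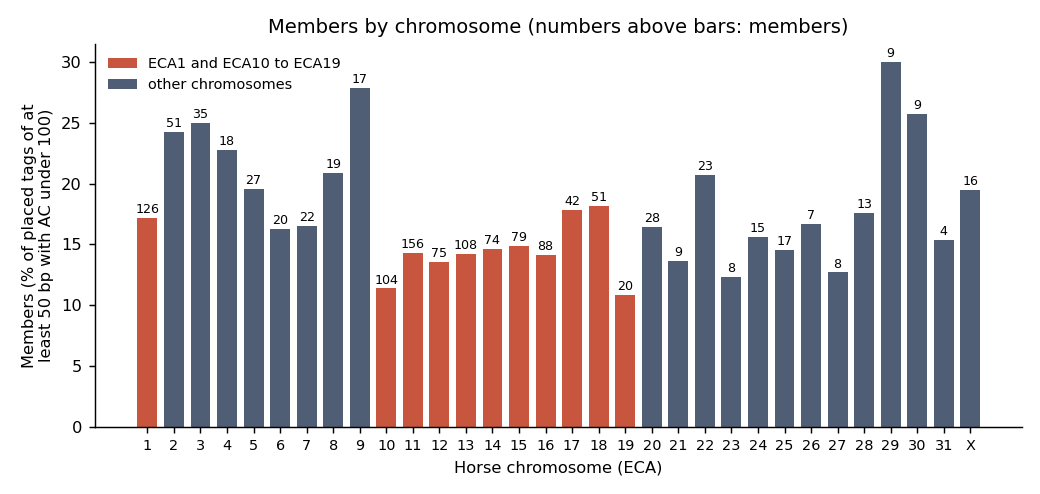
Members as a share (%) of placed tags of at least 50 bp with AC under 100, by horse chromosome, with the number of members above each bar. The share was 14.4% on ECA1 and ECA10 to ECA19 together and 19.2% on the other chromosomes.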

How the data were processed

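Sperm RNA of 2 stallions (1 library each) was sequenced as 50 bp reads. The authors aligned the reads to EcuCab2 with NovoalignCS, discarded reads with several similarly scoring alignments, shortened unaligned reads and tried them again, clustered alignments into tags and normalized AC linearly across the libraries (EXP pipeline). The deposited AC is a coverage signal, 1 value per tag. How it was made from 2 libraries is not stated. It was the higher value in the part of the study's list per library that was held, which was not used otherwise.

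Here tags were read with Python 3.11.15 and numpy 2.4.6, split by letter case, searched for tandem repeats, 9-letter words and tRNA folds (a T loop with its stem, an anticodon stem at the usual distance and a paired acceptor stem), and aligned to each other by blastn 2.17.0 (words of 11 bases, E at most 1e-05, low-complexity filter on). On simulated data 1000 of 1000 tags, 250 of 250 repeats and 200 of 200 folds were recovered, and 0 of 2000 random sequences folded. Intervals of shares (scipy 1.17.1) cover counting error only.

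The members and lists were chosen with earlier results of these data known. Tags named by rule were the 10 of highest AC, 5 longest, 3 with most boundaries, 5 with the longest masked tandem repeat, the highest of the 3 largest similarity groups, those at the bounds and those the study lists for miRNAs, PKM2, PRM1, TNP2 or CRISP3. RNA families, PRM3, HSP90B1 and the duplicated copies were chosen after their values were seen. Gene names came from a RefSeq table of another assembly, without coordinates. Reference matches, gene lists and cell type markers needed sequences that were not used here. An RNA family and a repeat tag are not reported here. AC bound, length, bases per case, chromosomes, repeat length, identity and distance were varied.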

Additional observations from a re-analysis of the deposited data

How the results depend on the processing

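No library could be left out, and no paired analysis was possible because the deposited table gives 1 value per tag, and the values per library were held only in part and not used here. Reference matches were not run. The number of members stayed within 1.5 times of 1298 under each of the 6 other definitions tried (985 to 1486). Values outside the main counting interval were as follows. Without an AC bound, members made up 16.6% of placed tags of at least 50 bp, the median masked share was 52.6%, similarity 22.8% and the share on ECA1 and ECA10 to ECA19 66.9%. With AC under 50 similarity was 13.1%. With at least 100 bp, the share of members was 18.4%, the masked share 40.7%, a single boundary 46.5%, simple repeats 25.5%, a neighbour 49.3% and ECA1 and ECA10 to ECA19 73.6%. With at least 10 bases of each case these were 13.2%, 43.8%, 47.2% and, for similarity and a neighbour, 12.7% and 44.2%. Without ECA1 and ECA10 to ECA19 the share of members was 19.2%, the GC difference -0.69 points (interval -1.65 to 1.21, which includes 0), a single boundary 54.7%, simple repeats 32.8%, similarity 11.7% and a neighbour 21.6%. Simple repeats of at least 20 bases were found in 9.01%, similarity of at least 90% in 10.3%, and a neighbour within 100 and 10000 bp in 18.9% and 66.3%. Added after seeing the data, similarity was 27.6% with the low-complexity filter off and 12.1% without the 3 largest groups. The causes of these shifts were not tested. As the reads behind a tag are unknown, no single AC has an interval.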

Other observations

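The mixed tags kept out by the AC bound were of another make-up. The 188 placed mixed tags of at least 50 bp with AC of 100 or more had a median length of 98.5 bp and a median masked share of 89.9%, against 208 bp and 48.7% in the members. Their AC reached 242049. Of these 188, 11 had the fold of a tRNA, against 17 of the 1298 members.

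Members also occurred in short stretches with several tags. The one with the most members was on ECA12, chr12:10350762-10374741, with 8 members among 23 tags within 23980 bp and AC of 7.85 to 26.99. On ECA1, 5 members and no other tag lay within 4128 bp, chr1:117344641-117348768, at AC of 10.11 to 19.31, and on ECA5, chr5:44007613-44015707 held 5 members and no other tag at AC of 9.25 to 40.07. No genes were assigned to these stretches.

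Identical sequences carried identical values almost throughout. Among all tags, 81 formed 35 sets with the same sequence on either strand, 8 sets with tags on different chromosomes, and in 32 of the 35 sets AC was the same to the last digit deposited. Of these sets 3 held members: the lysine tRNA tags with AC of 69.40, the cysteine tRNA tags with 14.69 and chr18:10005497-10005686 with chr18:9766969-9767158, both with 23.68. By the methods, reads with several alignments of like score had been dropped. How identical copies received a value, and whether reads were counted at each copy, was not tested.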
